A study of Mus musculus with 4 samples.

Results

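The SLC25 family is the largest group of proteins that carry solutes across the inner mitochondrial membrane. It was followed here in brown adipose tissue (BAT) through the protein-coding genes whose symbol starts with Slc25a, which are 38 of the 17259 genes in the deposited table. Below, the family means these 38 genes. Members with other symbols, such as Ucp1, are not in its counts and sums. The 4 libraries came from wild-type (WT) mice and held 2 of isolated mitochondria (BAT-Mito) and 2 titled BAT-total. The BAT-total samples carry a treatment label that describes tissue without its mitochondria, whereas the study speaks of lysates of total tissue. Both readings are possible, so a BAT-total value stands either for the whole tissue or for what the isolation left over. The labels used here give neither age, sex nor the number of animals, and nothing says that the replicates came from separate animals. The p-values below therefore measure only the spread between these libraries, which may be technical.

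SLC25 carriers are encoded by nuclear genes. Their mRNAs are translated in the cytosol, and the finished proteins are taken up through the receptor TOM70 in the outer membrane and inserted into the inner membrane by the TIM22 complex. Each carrier exchanges particular substrates, such as ADP for ATP, phosphate for protons, acylcarnitines for carnitine, or citrate for malate. Brown adipocytes burn fatty acids in their mitochondria to make heat. Ucp1, the uncoupling protein that lets protons flow back without ATP synthesis, belongs with these carriers under another symbol. An mRNA of a nuclear gene in a mitochondrial preparation can lie on the outer surface, inside the organelle or in other material of the preparation, and a read count does not separate these places. The study's methods, written for heart mitochondria, add digitonin and RNase A before RNA was isolated. How fully such a treatment removed RNA outside the organelle in these libraries was not tested.

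Values are normalised counts, that is gene counts over a size factor per library. The steps between low values in BAT-Mito gave the worth of 1 read as 8.32 units (replicate 1) and 6.90 units (replicate 2). The reads counted on genes in these libraries summed to 26288871 and 24910434. Only 49420 and 58238 of those reads fell on nuclear protein-coding genes. A count of 0 in BAT-Mito allows up to 3 reads, or 24.97 and 20.70 units, for counting error only. In BAT-total 1 read was worth at most 1 unit, and the reads behind a value are unknown. Brown adipocyte markers were present in all libraries and took 0.656 and 1.84% of the nuclear protein-coding values in BAT-Mito replicates 1 and 2 and 2.01 and 1.83% in BAT-total. The 8 liver markers took 3.01 and 0.296% in BAT-Mito and 0.0434 and 0.0147% in BAT-total, with all 8 higher in both BAT-Mito libraries than in both BAT-total libraries. Of the 10 skeletal muscle markers 8 were higher in both BAT-Mito libraries than in both BAT-total libraries. The other marker lists are given with the results they touch or at the end, and the part of such transcripts in the carrier values was not tested.

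Which carriers brown fat expresses was read from BAT-total. All 38 genes had a value above 0 in both BAT-total libraries, 9 of them reached at least 100 normalised counts in both, and 6 stayed under 10 in both. Carrier genes without a row in the table could not be assessed, so this is not a count over all carriers of the mouse. Levels of different genes were compared per kilobase of exon. On this scale the ADP/ATP carrier gene Slc25a4 stood first with 133 ± 11.1 normalised counts per kilobase (SD, n = 2), followed by the citrate carrier gene Slc25a1 with 128 ± 37.3 and the second ADP/ATP carrier gene Slc25a5 with 117 ± 4.30. These leading genes did not differ beyond the spread of Slc25a1. A second tier was formed by the glutathione carrier gene Slc25a39 with 65.5 ± 2.82, the carnitine/acylcarnitine carrier gene Slc25a20 with 59.0 ± 4.67 and the NAD carrier gene Slc25a51 with 54.8 ± 0.513. Slc25a39 and Slc25a20 differed by more than either SD, whereas Slc25a20 and Slc25a51 did not differ beyond the SD of Slc25a20. The next gene, the CoA carrier gene Slc25a42, stood at 41.6 ± 0.826 per kilobase. The lowest levels per kilobase belonged to Slc25a53 with 0.314 ± 0.266 and to Slc25a14 with 0.423 and no spread between its libraries. For scale, Ucp1 reached 2752 normalised counts per kilobase in BAT-total.

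The order depends on which exons are counted. By the length of the transcript with the longest coding sequence, Slc25a1 led with 166 per kilobase, Slc25a4 had 162, Slc25a20 had 160 and Slc25a5 had 156, so that the fatty acid carrier gene then stood among the leading genes. The phosphate carrier gene Slc25a3 ranked 10 when the level was divided by all its annotated exons (29.01 ± 1.78 per kilobase) and 5 when it was divided by that transcript of 1341 bases (120 per kilobase). Across the 38 genes both orders had a Spearman rho of 0.97. The 2 BAT-total libraries ordered the genes alike, with a Spearman rho of 0.95 over the 38 genes, while the rho of the 2 BAT-Mito libraries was 0.40. These coefficients run across genes, which share libraries and are not independent replicates.

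**Figure D1:**
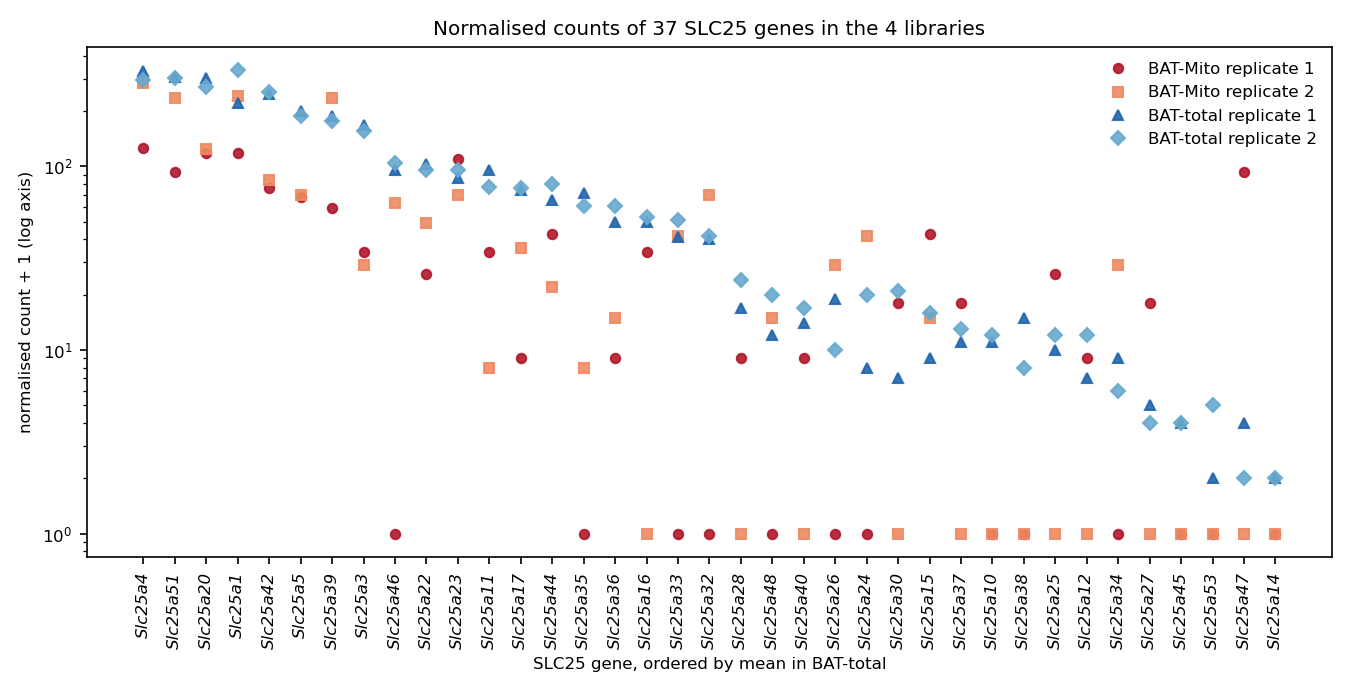
Normalised counts plus 1 (log axis) of 37 SLC25 genes in each of the 4 libraries, with 1 point per library and the genes ordered by their mean in BAT-total. The 2 BAT-total libraries lie close together for most genes, whereas many genes have a value of 0 in 1 of the BAT-Mito libraries (17 genes had reads in only 1 and 5 in neither).

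Slc25a4 and Slc25a5 encode the ADP/ATP carriers known as ANT1, the form of heart and skeletal muscle, and ANT2, the form of many other tissues. Their coding sequences in GENCODE M21 (GRCm38) are each 897 bases long and 77.5% identical. The first 60 coding bases of both are shown because they let a reader see how often the genes differ within a read of 75 bases, with capitals at the 19 positions that differ.
Slc25a4: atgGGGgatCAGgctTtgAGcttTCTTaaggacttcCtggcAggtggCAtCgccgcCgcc
Slc25a5: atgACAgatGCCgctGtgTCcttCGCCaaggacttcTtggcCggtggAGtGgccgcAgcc
The longest run of identical bases between these coding sequences was 20, so a read of 75 bases within the coding sequence cannot match both without mismatches. Slc25a5 shares sequence with other genes instead. Of the 1166 stretches of 75 bases in its transcript, 325 (27.9%) also occur in transcripts of 7 other gene entries, among them the processed pseudogenes Gm5560 and Gm5529. Reads from these stretches match several genes and were left out by the authors' counting, so that the level of Slc25a5 is uncertain. Among the other carriers 31 had no such shared stretch, and the shared part was 9.76% in Slc25a36, 8.38% in Slc25a40, 7.51% in Slc25a37 and 2.84% or less in Slc25a3, Slc25a51 and Slc25a42.

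Slc25a4, on the minus strand of chromosome 8 at chr8:46206797-46211284 (mm10), had 125 and 283 normalised counts in BAT-Mito replicates 1 and 2 (15 and 41 reads) and 331 and 294 in BAT-total. Both BAT-Mito values were below both BAT-total values, narrowly so for replicate 2, and the log2 fold change of BAT-Mito over BAT-total was -0.73 with an SE of 0.61 (limma adjusted p = 0.502). It was -0.14 without BAT-Mito replicate 1 and -1.31 without replicate 2. Slc25a5, at chrX:36795651-36798807 on the plus strand, had 67 and 69 in BAT-Mito (8 and 10 reads) and 198 and 188 in BAT-total, a log2 fold change of -1.49 with an SE of 0.41 (limma adjusted p = 0.229). For this gene the replicates of each group were close and the groups lay well apart, although the adjusted p did not pass the threshold.

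The mixture of both ADP/ATP carrier mRNAs was compared as the share of Slc25a4 in their sum. It was 65.1% in BAT-Mito replicate 1 (95% Wilson interval 44.9 to 81.2), 80.4% in replicate 2 (67.5 to 89.0) and 62.6 and 61.0% in BAT-total. Both BAT-Mito shares were above both BAT-total shares, but the interval of replicate 1 included the BAT-total values and that of replicate 2 did not. With 2 libraries against 2 the smallest two-sided p that an exact permutation test allows is 0.333. The heart marker Myh6 moved with the share, with 183 and 531 normalised counts in BAT-Mito and 2 and 0 in BAT-total. Of 7 heart markers chosen, only 3 were in the table, and together they had 208 and 731 in BAT-Mito and 5 and 1 in BAT-total. Of these, Myh6 and Actc1 were higher in both BAT-Mito libraries, whereas Myl3 overlapped (0 and 83 against 3 and 0). The 10 skeletal muscle markers had 3579 and 1208 in BAT-Mito and 340 and 719 in BAT-total, so they were higher in BAT-Mito replicate 1, where the ANT1 share was the lower of both BAT-Mito shares. The part of either tissue in the ANT1 share was not tested.

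The remaining adenine nucleotide carriers are the calcium-regulated ATP-Mg/phosphate carriers, which load or empty the adenine nucleotide pool of the matrix. Slc25a23, at chr17:57043711-57059863 on the minus strand, was the most abundant of them with 108 and 69 in BAT-Mito (13 and 10 reads) and 85 and 95 in BAT-total. The groups overlapped, and its log2 fold change of -0.06 (SE 0.48, limma adjusted p = 0.940) was among the highest of the family. It took a direction above 0 under 4 other scalings, with log2 fold changes up to 0.68. Slc25a24 had 0 and 41 in BAT-Mito against 7 and 19 in BAT-total, and Slc25a25 had 25 and 0 against 9 and 11. For both genes 1 BAT-Mito library was at 0, the log2 fold change was -0.96 and -1.10 in limma, and edgeR and DESeq2 placed it above 0 (0.77 and 0.71 for Slc25a24, 0.20 and 0.25 for Slc25a25). As a group, the 5 adenine nucleotide carriers made up 27.5 and 22.7% of the summed family in BAT-Mito and 20.49 and 19.1% in BAT-total. Of the 5, 2 had both BAT-Mito values below both BAT-total values, against 52.1% of all tested genes. Their median log2 fold change was -0.96 in limma, which is the value of Slc25a24, and -0.04 in edgeR and in DESeq2.

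Of the carriers that supply phosphate and exchange acids of the citrate cycle, Slc25a3 had the smallest adjusted p. The phosphate carrier delivers the phosphate that ATP synthase uses. Slc25a3, at chr10:91116574-91124059 on the minus strand, had 33 and 28 in BAT-Mito, which is 4 reads in each library, and 168 and 154 in BAT-total. Both BAT-Mito values lay far below both BAT-total values, and the log2 fold change was -2.37 with an SE of 0.42. The replicates nearly coincided, but at 4 reads each this does not show a small counting error. The Wilson interval of its share of the family's reads was 1.10 to 7.02% in BAT-Mito replicate 1 and 0.529 to 3.43% in replicate 2. The first included both BAT-total shares, 5.46 and 4.85%, and the second did not. The adjusted p was 0.122 in limma, 0.0403 in edgeR and 0.0144 in DESeq2, so the call depended on the tool.

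The citrate carrier, which exports citrate for fatty acid synthesis in the cytosol, is encoded by Slc25a1 at chr16:17925223-17928219 on the minus strand. It had 117 and 242 in BAT-Mito (14 and 35 reads) and 219 and 333 in BAT-total. The groups overlapped, and the log2 fold change was -0.68 with an SE of 0.62 (limma adjusted p = 0.528). It was -0.16 without BAT-Mito replicate 1 and -1.20 without replicate 2. Slc25a1 made up 78.0% (Wilson interval 54.8 to 91.0) and 89.6% (76.4 to 95.9) of the sum of Slc25a1 and Slc25a3 in BAT-Mito and 56.6 and 68.4% in BAT-total. Both BAT-Mito shares were higher, and only the interval of replicate 2 excluded both BAT-total values. The oxoglutarate/malate carrier gene Slc25a11, a part of the malate-aspartate shuttle, had 33 and 7 in BAT-Mito (4 and 1 reads) and 94 and 76 in BAT-total, with a log2 fold change of -2.37 and an SE of 0.91. The dicarboxylate carrier gene Slc25a10 had no read in either BAT-Mito library and 10 and 11 normalised counts in BAT-total, a level at which the BAT-Mito depth could not show a difference.

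Slc25a20 encodes the carnitine/acylcarnitine carrier, which brings fatty acids into the matrix for beta-oxidation. At chr9:108662088-108684641 on the plus strand, it had 117 and 124 in BAT-Mito (14 and 18 reads) and 302 and 270 in BAT-total. The replicates were close and the groups did not overlap. Its log2 fold change of -1.24 (SE 0.41, limma adjusted p = 0.274) lay 0.01 below the median of all tested genes in limma. In edgeR and in DESeq2 it was -1.25, against a median of -0.81 over all tested genes.

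Carriers of other nucleotides and cofactors were the most numerous group, with 9 genes that made up 33.5 and 33.8% of the summed family in BAT-total and 18.9 and 36.6% in BAT-Mito. Of the 9 genes, 5 had both BAT-Mito values below both BAT-total values, near the 52.1% of all tested genes, and 8 had a fold change below the median of all tested genes. Slc25a51, the NAD carrier gene at chr4:45395923-45408766 on the minus strand, had 92 and 235 in BAT-Mito (11 and 34 reads) and 304 and 300 in BAT-total (log2 fold change -1.03, SE 0.66, limma adjusted p = 0.417). The log2 fold change was -0.36 without BAT-Mito replicate 1 and -1.70 without replicate 2. Both BAT-Mito values were lower, and they differed from each other far more than the BAT-total values did.

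Slc25a42, the CoA carrier gene at chr8:70184340-70212305 on the minus strand, had 75 and 83 in BAT-Mito (9 and 12 reads) and 246 and 253 in BAT-total. Its replicates agreed closely in both groups and the groups lay apart, with a log2 fold change of -1.65 and an SE of 0.41. The adjusted p was 0.209 in limma, 0.0804 in edgeR and 0.0269 in DESeq2. Slc25a16, linked to CoA uptake as well, had 33 and 0 in BAT-Mito (4 and 0 reads) and 49 and 52 in BAT-total, with a log2 fold change of -3.14 and an SE of 1.997. The value was -5.69 without BAT-Mito replicate 1, -0.60 without replicate 2, -1.72 in edgeR and -1.67 in DESeq2.

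The folate and FAD carrier gene Slc25a32 differed between the BAT-Mito libraries, with 0 and 69 in BAT-Mito (0 and 10 reads) and 39 and 41 in BAT-total. The pyrimidine nucleotide carrier genes Slc25a33 and Slc25a36 bring in the building blocks of mitochondrial RNA and DNA. Slc25a36 had 8 and 14 in BAT-Mito (1 and 2 reads) and 49 and 60 in BAT-total, a ratio of the group means of 0.202 with an exact Poisson interval of 0.0416 to 0.590. Slc25a33 had 0 and 41 in BAT-Mito and 40 and 50 in BAT-total, and 14.9% of its exon bases are covered by a gene on the other strand. Slc25a17, whose product sits in the peroxisomal membrane, had 8 and 35 in BAT-Mito (1 and 5 reads) and 73 and 75 in BAT-total, and the S-adenosylmethionine carrier gene Slc25a26 had 0 and 28 against 18 and 9. The log2 fold change of Slc25a26 was -1.36 in limma, 0.14 in edgeR and 0.09 in DESeq2.

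Among the amino acid carriers, Slc25a44 is of interest to a study of branched-chain amino acids because its product brings them into mitochondria, where brown fat uses them during thermogenesis. It had 42 and 21 normalised counts in BAT-Mito (5 and 3 reads) and 65 and 79 in BAT-total. Both BAT-Mito values were lower, with a log2 fold change of -1.24 and an SE of 0.56 (limma adjusted p = 0.324). Slc25a22, a glutamate carrier gene at chr7:141429744-141437892 on the minus strand, had 25 and 48 in BAT-Mito (3 and 7 reads) and 102 and 94 in BAT-total (log2 fold change -1.47, SE 0.54, limma adjusted p = 0.290), again with lower values in both BAT-Mito libraries. The aspartate/glutamate carrier gene Slc25a12 had 6 and 11 in BAT-total and the glycine carrier gene Slc25a38 had 14 and 7.

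The ornithine carrier of the urea cycle, encoded by Slc25a15, was 1 of 2 tested members with a fold change above 0 in limma. It had 42 and 14 in BAT-Mito (5 and 2 reads) and 8 and 15 in BAT-total, and the log2 fold change was 1.08 with an SE of 0.78 (limma adjusted p = 0.456). It was 0.32 without BAT-Mito replicate 1 and 1.84 without replicate 2. The groups overlapped. The other was Slc25a47, a carrier gene known from liver, with 92 and 0 in BAT-Mito (11 and 0 reads) and 3 and 1 in BAT-total, a log2 fold change of 1.77 with an SE of 2.57 (limma adjusted p = 0.665). edgeR gave 4.30 and DESeq2 4.504, neither of them past the threshold (adjusted p = 0.113 and 0.158). All its BAT-Mito reads were in replicate 1, and the log2 fold change was 5.04 without replicate 2 and -1.50 without replicate 1. The liver markers moved with it, since their summed level was 12383 and 1194 in BAT-Mito and 280 and 93 in BAT-total, with all 8 higher in BAT-Mito replicate 1 than in replicate 2. Albumin (Alb) alone had 4943 and 393 in BAT-Mito and 97 and 3 in BAT-total. The part of liver transcripts in the values of Slc25a15 and Slc25a47 was not tested.

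The iron and glutathione carriers were dominated by Slc25a39, whose product imports glutathione. Slc25a39, at chr11:102402985-102407946 on the minus strand, had 58 and 235 in BAT-Mito (7 and 34 reads) and 186 and 175 in BAT-total. Replicate 2 was above both BAT-total libraries and replicate 1 below both, and the log2 fold change was -0.62 with an SE of 0.87 (limma adjusted p = 0.653). Its close relative Slc25a40 had 8 and 0 in BAT-Mito and 13 and 16 in BAT-total, so that Slc25a39 made up 93.5 and 91.6% of the pair in BAT-total. The mitoferrins import iron. Slc25a28 (mitoferrin-2) had 16 and 23 in BAT-total and Slc25a37 (mitoferrin-1), high in developing red blood cells, had 10 and 12, each with 2 reads or fewer in any BAT-Mito library. The red blood cell markers summed to 296 and 624 in BAT-total and 250 and 635 in BAT-Mito.

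The relatives of the uncoupling proteins were scarce in brown fat. Slc25a14 (UCP5) had 1 normalised count in each BAT-total library, Slc25a27 (UCP4) had 4 and 3, and Slc25a30 had 6 and 20. None of them had a read in BAT-Mito replicate 2. In BAT-Mito replicate 1 Slc25a27 and Slc25a30 each had 17 (2 reads), which for Slc25a27 is above both BAT-total values, and Slc25a14 had 0. Of the carriers whose role is different or unsettled, Slc25a46 and Slc25a35 were the most abundant. Slc25a46, at chr18:31556111-31609911 on the minus strand, encodes an outer membrane protein of mitochondrial dynamics and had 0 and 62 in BAT-Mito (0 and 9 reads) and 95 and 103 in BAT-total. Its log2 fold change of -3.65 had an SE of 2.33 (limma adjusted p = 0.418). It was -0.67 without BAT-Mito replicate 1, -6.64 without replicate 2, -1.56 in edgeR and -1.64 in DESeq2. Slc25a35, at chr11:68968131-68974365 on the plus strand, had 0 and 7 in BAT-Mito (0 and 1 reads) and 71 and 60 in BAT-total. Its log2 fold change was -4.55 (SE 1.23), and it was -3.05 without BAT-Mito replicate 1 and -6.05 without replicate 2. The adjusted p was 0.228 in limma, 0.0441 in edgeR and 0.0793 in DESeq2. The ratio of its group means was 0.0534 with an exact Poisson interval of 0.00135 to 0.298 for the single read. Of its exon bases 31.3% are covered by Rangrf on the other strand, and the strand setting of the counting is not given in the sources used here. Slc25a34, Slc25a45, Slc25a48 and Slc25a53 did not exceed 28 normalised counts in any library. Slc25a34, with 0 and 28 in BAT-Mito and 8 and 5 in BAT-total, had a log2 fold change of -0.45 in limma, 1.15 in edgeR and 1.14 in DESeq2.

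The 38 genes as a whole were compared through their share of all nuclear protein-coding values, which does not depend on the size factors. Ucp1 is not in their sum. It alone had 4819 and 4185 in BAT-total, where the 38 genes summed to 3075 and 3176. The share was 0.288% in BAT-Mito replicate 1 (142 of 49420 reads, 95% Wilson interval 0.244 to 0.339), 0.506% in replicate 2 (295 of 58238 reads, 0.452 to 0.568) and 0.477 and 0.502% in BAT-total. BAT-Mito replicate 2 was level with BAT-total and replicate 1 was below it, and the intervals of the 2 BAT-Mito libraries did not overlap. On average BAT-Mito stood at 0.397 ± 0.155% and BAT-total at 0.489 ± 0.0173% (SD over 2 libraries), which differ by -0.0924 percentage points (exact permutation test, two-sided, p = 1, smallest possible 0.333). Without replicate 1 of BAT-Mito the difference was 0.0168 percentage points. Over nuclear genes of any biotype the share was 0.0114 and 0.0262% in BAT-Mito and 0.395 and 0.409% in BAT-total, so the size of the difference depends on the denominator. Replicate 1 is also the library in which the brown adipocyte markers took the smallest and the liver and skeletal muscle markers the largest share. Their part in the lower carrier share was not tested.

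**Figure D2:**
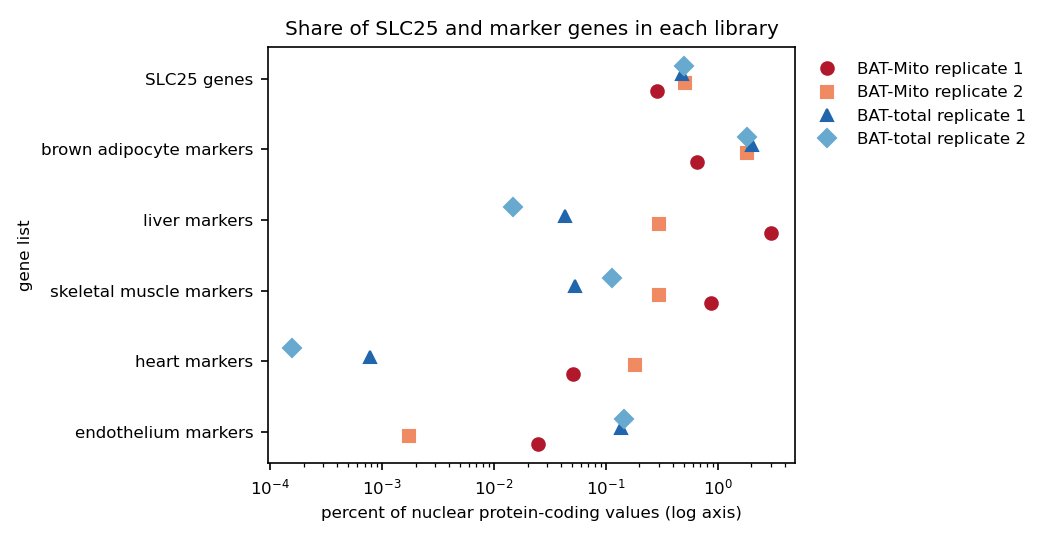
Share of nuclear protein-coding values (percent, log axis) taken by the SLC25 genes and by 5 marker lists in each of the 4 libraries, with 1 point per library. For SLC25 and brown adipocyte genes BAT-Mito replicate 1 lies to the left of the other 3 libraries, whereas it lies to the right of them for liver (3.01%) and skeletal muscle markers.

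Within the family, the 12 genes with the highest mean over the 4 libraries took 69.7 and 84.4% of the summed values in BAT-Mito and 79.6 and 78.5% in BAT-total. Of all 38 genes, 13 took a smaller share of the family in both BAT-Mito libraries than in both BAT-total libraries, 2 took a larger share and 23 overlapped. Of these 13, 5 had no BAT-Mito read and BAT-total values below what 3 BAT-Mito reads are worth, so their place in this count was set by the depth, and the count has no counterpart over all genes. Of the 12, 5 took a smaller share by this measure, 1 took a larger share and 6 overlapped. The lower shares among the 12 belonged to Slc25a42, Slc25a5, Slc25a3, Slc25a22 and Slc25a46. Slc25a3 made up 2.79 and 1.37% of the family in BAT-Mito and 5.46 and 4.85% in BAT-total, and Slc25a42 made up 6.34 and 4.07% against 8.0 and 7.97%. The higher share among the 12 belonged to Slc25a23, with 9.13 and 3.38% in BAT-Mito against 2.76 and 2.99% in BAT-total. In 0 of the 38 genes did the Wilson intervals of both BAT-Mito libraries exclude both BAT-total shares, so none of these shifts in composition was detectable in each BAT-Mito library on its own. The means of the genes in BAT-Mito and in BAT-total had a Spearman rho of 0.78 over the 38 genes.

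**Figure D3:**
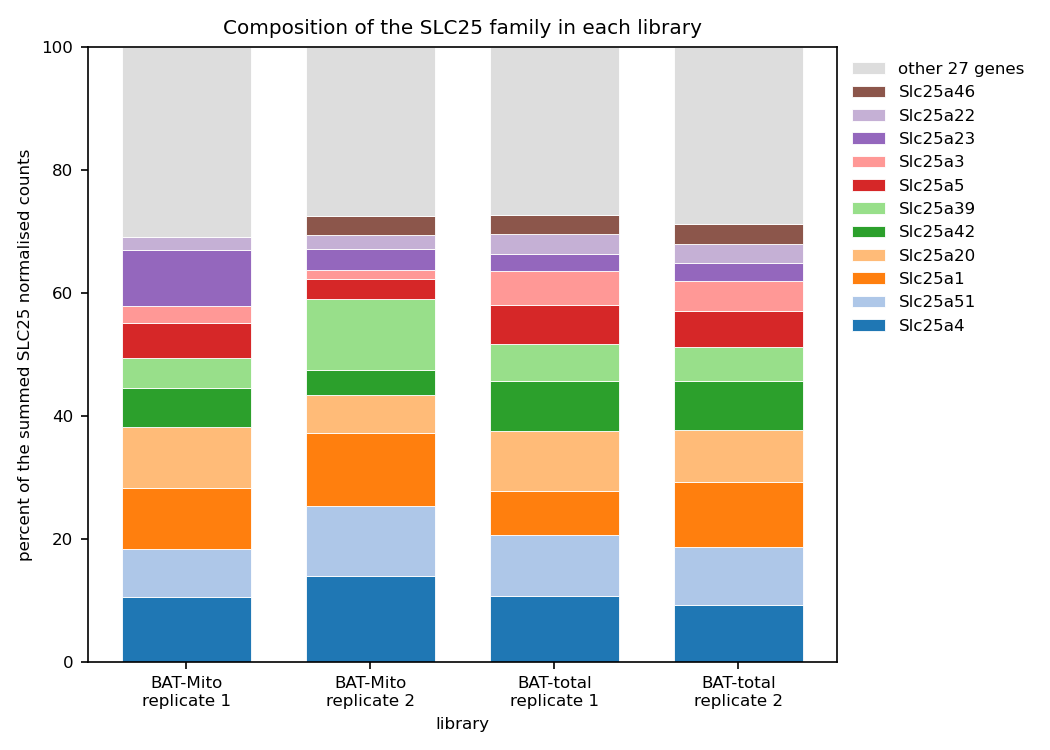
Percent of the summed SLC25 normalised counts taken by 11 of the 12 genes of highest mean and by the other 27 genes together, with 1 stacked bar per library. The 2 BAT-total bars are nearly the same, and the BAT-Mito bars differ from each other widely for Slc25a39 (4.90 and 11.5%).

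The replicates of BAT-Mito differed by more than counting error for several carriers. Of the 38 genes 7 had a share of the nuclear protein-coding reads whose 95% Wilson intervals did not overlap between the BAT-Mito libraries. This count was not made over all nuclear protein-coding genes, so it shows no trait particular to the carriers. Slc25a4, Slc25a51, Slc25a39, Slc25a46 and Slc25a32 were among those higher in replicate 2, and Slc25a47 was higher in replicate 1. Among the 9 genes with a BAT-total mean of at least 100, the higher BAT-Mito library exceeded the lower by a median ratio of 2.07, whereas the median ratio of the BAT-total libraries was 1.09 and the largest 1.52. Of these 9 genes 8 were higher in BAT-Mito replicate 2, again without a count over all genes beside it.

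**Figure D4:**
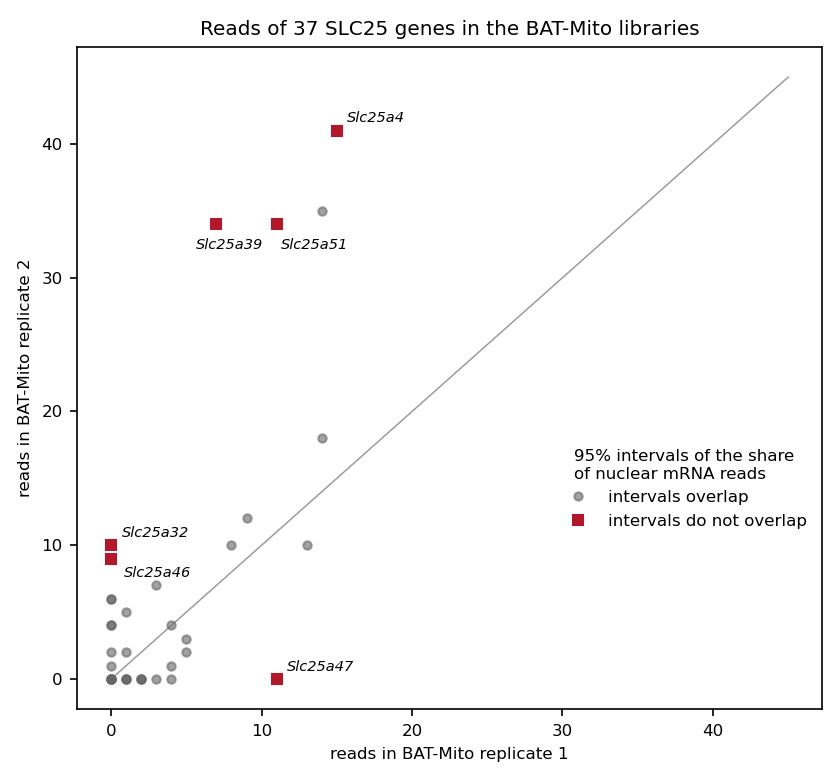
Reads of each of 37 SLC25 genes in BAT-Mito replicate 1 (x axis) and replicate 2 (y axis), with 1 point per gene and a line of equal reads. Squares mark the genes shown whose 95% Wilson intervals do not overlap, all above the line except Slc25a47 on the x axis with 11 and 0 reads.

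How the carrier mRNAs distribute between BAT-Mito and BAT-total was tested with limma on log2 of the normalised count plus 1 for the genes with a mean of at least 10 over the 4 libraries. This filter kept 29 of the 38 carriers among 8215 genes. No carrier was called in either direction at a Benjamini-Hochberg adjusted p under 0.05, where 0.803% of all tested genes were called higher and 4.41% lower in BAT-Mito. The adjusted p of the carriers ran from 0.122 for Slc25a3 to 0.940 for Slc25a23. At an unadjusted p under 0.05, 6 carriers were lower and none higher, against 14.9% of all tested genes that were lower. edgeR on reads called 2 carriers lower, Slc25a3 and Slc25a35, where it called 2.50% of all tested genes lower, and DESeq2 called 2 lower, Slc25a3 and Slc25a42, where it called 3.66%. Neither tool called a carrier higher. For Slc25a3 all tools placed the log2 fold change between -2.37 and -2.41.

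Most carriers lay on the lower side, as did most genes. Of the 29 tested carriers 27 had a negative log2 fold change in limma, as had 81.2% of all tested genes. In edgeR and in DESeq2 23 were negative, where 73.8 and 73.7% of all tested genes were. Slc25a24, Slc25a25, Slc25a26 and Slc25a34, each with 0 reads in 1 BAT-Mito library, were below 0 in limma and above 0 in both other tools. Both BAT-Mito libraries were below both BAT-total libraries for 15 of the 29 carriers, against 52.1% of all tested genes, and above both for none, against 8.59%. The median log2 fold change was -1.49 for the tested carriers and -1.23 for all tested genes. Relative to all tested genes the carriers thus stood at -0.26, with 19 below and 10 above that median. Under the other scalings the median of all genes moved to between -0.86 and -0.54, and the carriers stood between -0.32 and -0.25 relative to it.

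Part of these fold changes rests on counts of 0. Of the tested carriers 16 had reads in both BAT-Mito libraries and 13 in only 1 of them, whereas 63.3% of the 7650 tested nuclear protein-coding genes had reads in both, 32.2% in 1 and 4.54% in none. Among genes with reads in both, the median log2 fold change was -1.36 for the carriers and -0.76 for 4843 nuclear protein-coding genes. Both medians cover genes selected by their BAT-Mito reads, and their difference was not tested. By role, the 3 tested phosphate, citrate and dicarboxylate carriers had a median log2 fold change of -2.37 in limma, -2.15 in edgeR and -2.14 in DESeq2, with limma values from -2.37 to -0.68. Differences between role groups were not tested, and groups with 1 or 2 tested genes allow no order. For the 9 other nucleotide and cofactor carriers it was -2.25 in limma, -0.99 in edgeR and -1.07 in DESeq2. None of the 8 role groups held a gene with both BAT-Mito values above both BAT-total values. Exon length had a Spearman rho of -0.09 with the fold change over the 29 carriers and of -0.17 over the tested nuclear protein-coding genes.

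**Figure D5:**
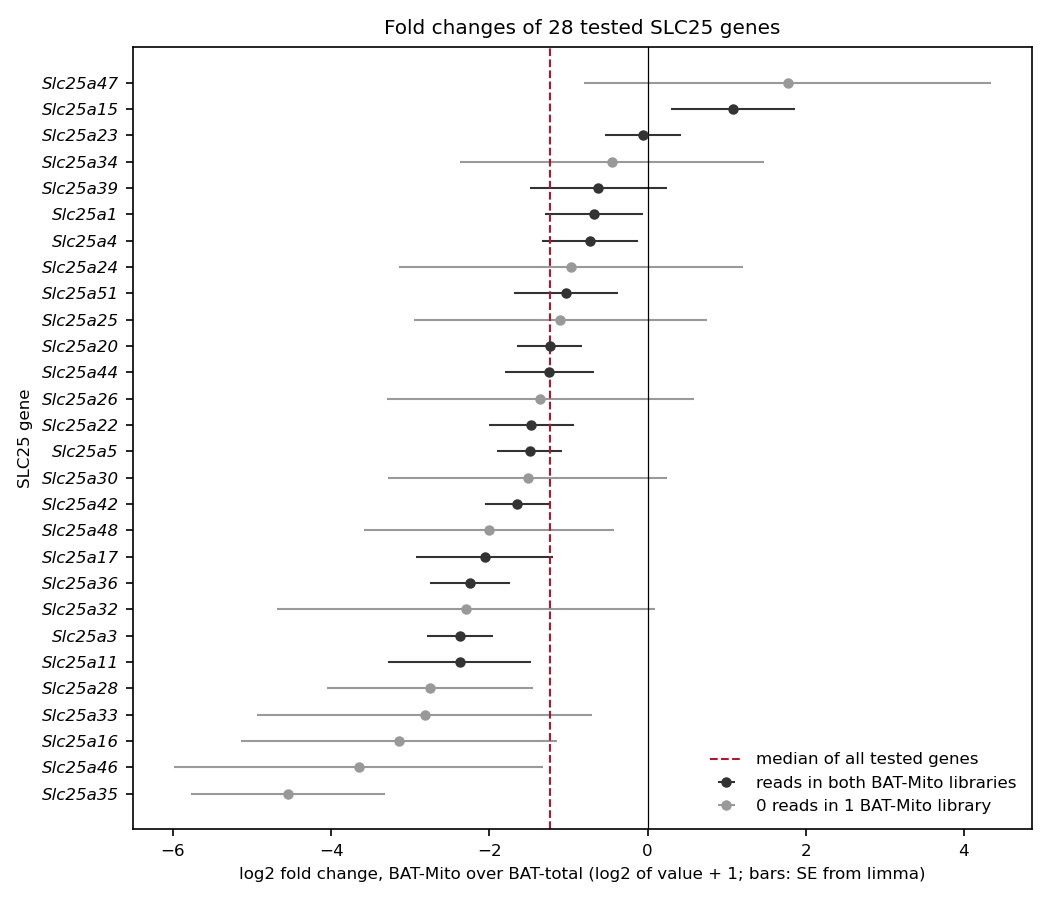
Log2 fold change of BAT-Mito over BAT-total for 28 of the 29 tested SLC25 genes on the scale of log2 of value plus 1, with the SE from limma as bars and the median of all 8215 tested genes as a dashed line. Grey points are genes with 0 reads in 1 BAT-Mito library, and all genes shown except Slc25a15 and Slc25a47 lie below 0.

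Other transporters and channels of the mitochondrial membranes, Ucp1 among them, were set beside the 38 genes. Of 26 listed genes 21 were tested, 0 were called higher and 1 lower by limma, where 0.803 and 4.41% of all tested genes were called. The called gene was Abcb8, a transporter gene of the ABC type with no read in either BAT-Mito library and 62 and 58 normalised counts in BAT-total (limma adjusted p = 0.0249). Their median log2 fold change of -1.10 lay 0.13 above that of all tested genes. Ucp1 had 1290 and 3554 in BAT-Mito (155 and 515 reads) and 4819 and 4185 in BAT-total, a log2 fold change of -1.07 with an SE of 0.70 (limma adjusted p = 0.426). Its replicates were apart in the same direction as those of Slc25a4, with the higher value in BAT-Mito replicate 2. The pyruvate carrier gene Mpc2 had 67 and 221 in BAT-Mito and 267 and 281 in BAT-total, and Letm1, a gene for a protein of inner membrane ion exchange, had 42 and 90 against 367 and 274. The carrier homologue gene Mtch2 had 92 and 97 in BAT-Mito and 261 and 234 in BAT-total.

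The proteins of the import route of the carriers were measured through 13 genes, of which 12 were tested and 0 called by limma. Their median log2 fold change was -1.71, which is -0.48 relative to all tested genes, and 6 of the 13 had both BAT-Mito values below both BAT-total values, against 52.1% of all tested genes. The receptor gene Tomm70a had 75 and 152 in BAT-Mito and 115 and 112 in BAT-total, and the pore gene Tomm40 had 75 and 55 against 82 and 71. The groups overlapped for both genes. Timm13, an intermembrane space chaperone gene, had 50 and 62 in BAT-Mito and 55 and 38 in BAT-total, again with overlap. These are the 3 genes of highest mean and not the typical ones of the list. The log2 fold changes of the 12 tested genes ran from -4.17 for Tomm20 to 0.28 for Timm13.

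Markers of other cells of the tissue distributed in their own ways. The 5 endothelial markers had 101 and 7 in BAT-Mito and 877 and 913 in BAT-total, with all 5 lower in both BAT-Mito libraries. The 5 macrophage markers had 200 and 220 in BAT-Mito and 62 and 66 in BAT-total. Of these, 3 were higher in both BAT-Mito libraries, whereas Cd68 (8 and 0 against 5 and 7) and Lyz2 (25 and 55 against 27 and 27) overlapped. The number of cells of a type, the RNA per cell and the RNA that each preparation retained cannot be told apart in such bulk libraries.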

How the data were processed

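RNA of 4 libraries, 2 BAT-Mito and 2 BAT-total, was prepared by the authors with a stranded low-input total RNA kit, with the fragmentation time of mitochondrial RNA adjusted, so library preparation may have differed with the group. The submitters' processing notes name the versions given here, and the study's methods name other versions of the same steps. Reads were trimmed with Trimmomatic 0.39, aligned to mm10 with STAR 2.7.10a, counted with featureCounts 2.0.2 without reads of several positions or genes, and normalised with DESeq2 1.30.1. The deposited values are a signal, gene counts that the authors divided by a size factor and rounded. The size of 1 read could be found in BAT-Mito, where 100% of the values came out as whole reads, but not in BAT-total.

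The 38 members are the protein-coding rows whose symbol starts with Slc25a. Members, role groups and lists were chosen with earlier results of these data known. The main test was limma 3.58.1 (R 4.3.3) on log2(normalised count + 1), without trend, for genes with a mean of at least 10, with Benjamini-Hochberg adjustment over 8215 genes and a threshold of 0.05. Such fold changes understate the change of low genes in general and overstate the decrease of genes with 0 reads in 1 BAT-Mito library, where 1 read is worth several units. edgeR 4.0.16 and DESeq2 1.42.0 were run on the recovered reads with BAT-total values taken as reads. Shares were compared by exact permutation tests, and intervals are 95% Wilson or exact Poisson intervals for counting error only. Named genes were the 12 members of highest mean, all called members and up to 3 per direction with the largest fold change, and the remaining members are given by role. The values of 1 member are not reported here, although the counts and sums over the family include it. Coordinates of all 38 members matched GENCODE M21, which gave exons and transcripts. Simulated data with known changes were used to test the scripts. Equal replicate numbers were not taken as pairs. Alternatives covered the pseudocount, the filter, the scaling, trend, tool, a block and leaving out each library.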

Additional observations from a re-analysis of the deposited data

How the results depend on the processing

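Calls of carriers depended on the tool and the filter. The number called lower was 0 in limma, 8 without a filter (4 of them, Slc25a10, Slc25a14, Slc25a38 and Slc25a45, with 0 reads in BAT-Mito and BAT-total values below what 3 reads are worth there, so that their calls carry no weight), 2 with a trend, 2 in edgeR and 2 in DESeq2, and from 0 to 19 when 1 library was left out (13 without BAT-Mito replicate 1, 19 without replicate 2). The number called higher was 0, with a range of 0 to 2 when 1 library was left out. Where a group keeps 1 library, that library is assumed to vary like the other group, and the cause of the added calls was not tested. The fit with the replicate number as a block called 0 carriers and changed no call. The correlation of equally numbered libraries was 0.11, and 2 pairs cannot show a pairing. The median log2 fold change of the carriers, -1.49, was -0.89 at equal totals of nuclear protein-coding genes, -0.94 with median ratios, -0.98 in edgeR and -0.84 at equal totals without the 50 nuclear genes highest in BAT-Mito, a scaling added after seeing the data. Relative to all tested genes it stayed negative under every alternative run, from -0.39 to -0.17, and from -0.65 to -0.10 when 1 library was left out. The difference in the family's share was -0.383 percentage points over all nuclear genes and ran from -0.202 to 0.0168 when 1 library was left out, with the turn in direction without BAT-Mito replicate 1. Of 161 values of the 15 named carriers under alternatives other than leaving out a library, 142 kept direction and side of the threshold, 10 passed it and 9 changed sign. The sign changes were Slc25a4 (0.011) and Slc25a1 (0.058) without the 50 genes, Slc25a39 at equal totals (0.025), with median ratios (0.028) and without the 50 genes (0.11), and Slc25a23 under these scalings in the same order (0.59, 0.59 and 0.68) and with TMM (0.34). When 1 library was left out, 3 named carriers changed sign, with ranges of -1.62 to 0.38 for Slc25a39, -0.38 to 0.26 for Slc25a23 and -1.50 to 5.04 for Slc25a47. The few reads per carrier in BAT-Mito, 0 to 41, limit what these libraries can show.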
